A study of Mus musculus with 6 samples.

Results

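Paneth cells kill microbes with more than their defensins, and 6 non-defensin effector genes of this cell type were followed: Lyz1, Mptx1, Mptx2, Ang4, Itln1 and Mmp7. They were chosen by symbol, and all 6 were found among the 32285 genes listed in the count matrices. The libraries came from epithelial cells of mouse ileal crypts, dissociated with TrypLE, sorted by the surface protein EpCAM and profiled with the droplet system MobiNova-100, which reads the RNA of single cells. In 3 libraries the mice carried Fpr2 alleles flanked by recombination sites and no Cre (Fpr2f/f, genotype labelled WT), and in 3 libraries the same alleles were combined with a Cre recombinase driven by the Villin promoter (Fpr2VKO), which is active throughout the gut epithelium. The mice were of matched sex and aged 8 to 12 weeks, with 3 a group. The C57BL/6J background is given for the Fpr2f/f mice, and that of the Villin-Cre mice is not given in the sources used here. The labels do not say which library came from which mouse. The study asked whether Fpr2, a receptor for formyl peptides made by bacteria, is needed in the epithelium to keep its cell types.

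Paneth cells sit at the base of small intestinal crypts beside the stem cells and release secretory granules into the crypt lumen. The granules hold alpha-defensins, which permeabilize bacterial membranes, together with enzymes and lectins. Lyz1 encodes the lysozyme of Paneth granules, which cleaves bacterial peptidoglycan. Ang4 encodes a ribonuclease of the angiogenin family with microbicidal activity, and Itln1 encodes intelectin-1, a lectin that binds sugars of microbial surfaces. Mptx1 and Mptx2 encode mucosal pentraxins, of the family of C-reactive protein. Mmp7 encodes matrilysin, the metalloprotease that cuts alpha-defensin precursors into their active form in mouse Paneth cells.

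In build GRCm38, Lyz1 lies on chromosome 10 (117287797 to 117292868, minus strand, 4 exons), Ang4 on chromosome 14 (51763878 to 51773590, minus strand, 2 exons) and Mmp7 on chromosome 9 (7692090 to 7699585, plus strand, 6 exons). The other 3 members share chromosome 1, with Itln1 at 171518122 to 171535294 (minus strand, 8 exons), Mptx2 at 173274382 to 173277777 (minus strand, 2 exons) and Mptx1 at 174330518 to 174332873 (plus strand, 2 exons). Mptx1 and Mptx2 lie 1053 kb apart, and their transcripts were 92.5% identical over 796 aligned positions. Lyz1 and its neighbour Lyz2, the lysozyme of macrophages, lie 5.48 kb apart and were 95.8% identical. Reads from such near-identical transcripts can be divided between the copies by the counting, so the values of Mptx1, Mptx2 and Lyz1 carry that uncertainty.

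The start-site windows of Mptx1 and Mptx2 are shown because these paralogs were found in different cells, and that of Mmp7 because its UMIs were spread over more cell classes than those of the other members with high levels. Each window runs from 250 bases before to 50 bases after the RefSeq start (GRCm38.p6) and is written in the direction of the gene. Capitals mark CTTTG, the core of the sites of TCF factors in Wnt signalling, and TATAA, the core of the TATA box, on either strand (CAAAG and TTATA). The windows are chr1:174330268-174330567 on the plus strand, chr1:173277707-173278006 on the minus strand and chr9:7691840-7692139 on the plus strand.
Mptx1: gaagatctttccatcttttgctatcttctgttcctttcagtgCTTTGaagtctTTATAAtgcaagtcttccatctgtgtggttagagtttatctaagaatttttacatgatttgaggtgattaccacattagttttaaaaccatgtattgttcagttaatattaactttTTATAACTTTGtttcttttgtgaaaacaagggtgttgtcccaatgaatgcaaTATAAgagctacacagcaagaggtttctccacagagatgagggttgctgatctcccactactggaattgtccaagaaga
Mptx2: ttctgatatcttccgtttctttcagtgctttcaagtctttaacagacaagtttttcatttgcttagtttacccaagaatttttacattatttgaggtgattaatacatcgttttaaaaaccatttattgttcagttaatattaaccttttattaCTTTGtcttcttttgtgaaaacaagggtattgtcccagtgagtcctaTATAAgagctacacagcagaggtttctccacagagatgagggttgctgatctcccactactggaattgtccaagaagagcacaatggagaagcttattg
Mmp7: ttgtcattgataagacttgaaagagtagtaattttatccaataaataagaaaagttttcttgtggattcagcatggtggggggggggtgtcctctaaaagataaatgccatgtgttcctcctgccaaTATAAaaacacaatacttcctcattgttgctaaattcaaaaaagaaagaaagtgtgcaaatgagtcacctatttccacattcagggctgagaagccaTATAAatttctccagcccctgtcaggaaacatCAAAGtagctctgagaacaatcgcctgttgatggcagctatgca
The Mptx1 and Mptx2 windows were identical at 251 of 287 aligned positions (87.5%), with 10 gap positions. The Mptx1 window held 5 matches to TATAA or TTATA, some of which overlap one another, and the nearest upstream match began at -29 from the start. The Mptx2 window held 1 such match, at -49, and the Mmp7 window held 2, the nearer at -26. CTTTG or CAAAG occurred 2 times in the Mptx1 window and 1 time in each of the other printed windows. Over 32851 RefSeq windows of the same length, 53.9% held CTTTG or CAAAG and 24.9% held TATAA or TTATA, so a match to either is common, while 1.18% held 4 or more matches to TATAA or TTATA, overlapping ones included.

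The matrices held 90142126 to 189516114 UMIs per library, where a UMI (unique molecular identifier) counts 1 captured transcript molecule. Barcodes with at least 1000 UMIs, at least 500 genes and at most 20% mitochondrial UMIs were kept, which gave 17104 cells and 16676 after doublet removal. The mitochondrial limit removed 65.7% to 90.1% of the barcodes that passed the other limits. Cells were clustered without the 6 genes and named from other markers, so the place of a member was not built into the clusters. This gave 909 Paneth-like, 1728 goblet-like, 2023 transit-amplifying-like (TA-like), 927 stem-like, 739 enterocyte-like, 440 enteroendocrine-like, 333 tuft-like and 318 immune cells, and left 9022 cells in unnamed clusters besides 237 in 1 further unnamed cluster (cluster 19) that is treated apart. The stem-like cluster was led by the stem cell markers Olfm4 and Lgr5 beside genes of DNA replication such as Mcm4, Mcm6 and Cdt1. Pairs of libraries shared 0 to 23 cell barcodes, where 1.79 to 5.68 would be shared if the barcodes were drawn independently, and 5 of the 15 pairs were above 10. Of the cells left after doublet removal, 17 of 909 Paneth-like, 25 of 1728 goblet-like and 232 of 16358 epithelial cells bore a barcode that another library also held, and without them no member gained or lost a call between the groups. Fpr2 had 0 UMIs in every library, in cells and in free RNA alike, which over 16358 epithelial cells allows a level of up to 0.0139 CPM (UMIs of a gene per 1000000 UMIs of the cells summed), so the deletion itself could not be checked in these data.

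The Paneth-like cells were named from 16 Paneth markers, none of them a member, so the levels of these markers describe the cells and do not test the name. All 16 were above 0, and together they made up 510790 to 579030 CPM in each library. The goblet list of 6 markers summed to a mean of 2084 CPM in the same cells. Alpha-defensins are here the 22 genes whose symbol is Defa followed by a number. Genes under other symbols, such as AY761184 and Gm14851, are not counted among them. These 22 alone took 47.0% ± 2.90 (SD, n = 6 libraries) of the UMIs of Paneth-like cells, and the 6 effectors took 10.4% ± 1.49. Other cells received Paneth transcripts as free RNA, the molecules outside cells that enter every droplet. In barcodes under 100 UMIs, which hold little but free RNA, alpha-defensins took 0.343% to 2.45% of UMIs and the 6 effectors 0.109% to 0.616%.

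Levels are given in CPM with UMIs summed per class and library, in the order Fpr2f/f replicates 1, 2 and 3, then Fpr2VKO replicates 1, 2 and 3. In Paneth-like cells, Lyz1 stood at 53060, 42284 and 45404 in Fpr2f/f and at 66563, 44112 and 63823 in Fpr2VKO. Itln1 stood at 23108, 18630 and 18597 in Fpr2f/f and at 22632, 19781 and 21777 in Fpr2VKO. Ang4 stood at 16498, 18995 and 17520 in Fpr2f/f and at 23432, 14385 and 20187 in Fpr2VKO. In each of these genes the ranges of the groups overlapped, and the highest library was less than 2 times the lowest. Mptx2 was measured at 10523, 7066 and 10165 in Fpr2f/f and at 11223, 12107 and 8708 in Fpr2VKO. Mmp7 was measured at 2547, 1821 and 1927 in Fpr2f/f and at 2257, 2311 and 1951 in Fpr2VKO. Both again overlapped between groups. Mptx1 was nearly absent from these cells, with 3.97, 2.12 and 2.56 CPM in Fpr2f/f and 0, 0.252 and 0.705 in Fpr2VKO, or 6, 19 and 12 UMIs against 0, 2 and 4.

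**Figure D1:**
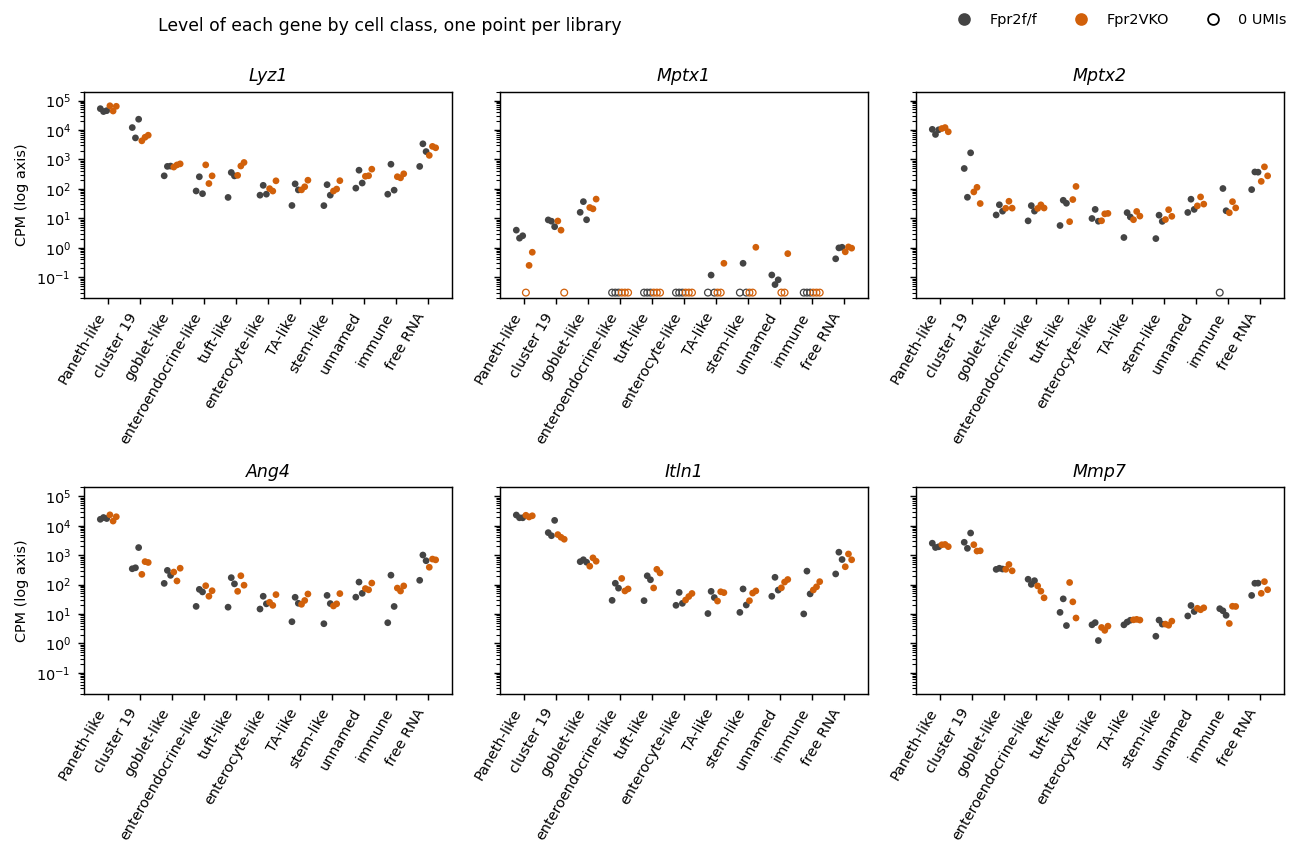
CPM (log axis) of each gene in each cell class and in free RNA, 1 point per library, with Fpr2f/f in grey, Fpr2VKO in orange and open points for 0 UMIs. Lyz1, Mptx2, Ang4, Itln1 and Mmp7 stood at 1821 to 66563 in Paneth-like cells, while Mptx1 was highest in goblet-like cells, at 8.94 to 45.

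The share of each gene's UMIs that fell in Paneth-like cells separated the members. It was 98.0% ± 1.19 for Mptx2, 97.4% ± 0.642 for Ang4, 94.2% ± 3.24 for Lyz1 and 91.6% ± 4.53 for Itln1 (SD, n = 6 libraries), beside 96.8% for the alpha-defensins. It was 74.9% ± 11.5 for Mmp7, whose other UMIs lay mainly in a small unnamed cluster (cluster 19, 15.3% ± 10.9) and in goblet-like cells (7.19% ± 2.47). For Mptx1 it was 10.2% ± 11.3, and goblet-like cells held 80.0% ± 14.2 of the UMIs of this gene. These shares describe clusters drawn from the same cells and carry no test.

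As geometric means over libraries, the level in Paneth-like cells was 441 times that in goblet-like cells for Mptx2, 96.0 times for Lyz1, 86.7 times for Ang4, 33.9 times for Itln1 and 6.04 times for Mmp7, beside 137 times for the alpha-defensins. Mptx1 ran the other way, at 0.0599 times over the 5 libraries with UMIs in both classes. Against TA-like cells, which divide and are not secretory, the folds ranged from 367 for Mmp7 to 1040 for Mptx2, beside 1024 for the alpha-defensins. Mptx1 stood at 6.52 times its TA-like level over the 2 libraries with UMIs in both (17.9 and 2.37). Their TA-like cells held 1 and 2 Mptx1 UMIs, too few to measure a fold. The low levels outside Paneth-like cells included free RNA, and so these folds are not measures of transcription in the other classes.

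As a yardstick for free RNA, the UMIs of each member in a class were set against those that the class's alpha-defensin UMIs would bring along at the ratio seen in barcodes under 100 UMIs of the same library. The yardstick is approximate. Lyz1 stood at 15.5 UMIs per 100 alpha-defensin UMIs in barcodes under 100 UMIs and at 18.1 in those of 100 to 500, and in TA-like, stem-like and enterocyte-like cells the mean quotients of the 5 genes other than Mptx1 ranged from 0.929 to 2.06, above 1 in 6 of 6 libraries for Lyz1 in each. Quotients in that range were not read as an excess over free RNA. In goblet-like cells the quotient was 104 ± 60.1 for Mptx1 (44.0 to 218), 15.9 ± 2.83 for Mmp7 (10.9 to 19) and 3.49 ± 1.12 for Itln1 (2.21 to 5.39; SD, n = 6), above 1 in 6 of 6 libraries for each. It was 1.49 ± 0.421 for Ang4 and 1.07 ± 0.316 for Lyz1, with single libraries on both sides of 1. For Mptx2 it was 0.30 ± 0.0876 and below 1 in 6 of 6 libraries. Mptx2 UMIs were thus fewer than the defensin UMIs of these cells would bring along if all of those were free RNA. The yardstick takes every alpha-defensin UMI of a class as free RNA. Goblet-like cells held 65247 of them in 1728 cells, against 25172 in 2023 TA-like cells. Alpha-defensin UMIs from another source would lower every quotient of the class, and their part was not tested. In enteroendocrine-like cells, which make gut hormones, the quotient for Mmp7 was 18.7 ± 15.8 and above 1 in 6 of 6 libraries. The level there was 152, 102 and 136 CPM in Fpr2f/f and 90, 59.8 and 35.6 in Fpr2VKO, from 27 to 167 UMIs a library. Of the 574 Mmp7 UMIs in these cells, 559 lay in 1 of the 2 clusters of that name (cluster 17) and 15 in the other (cluster 22). Mmp7 was not particular to cluster 17, where it stood at 130 ± 59.2 CPM. Cluster 21, led by Ghrl and Neurog3 and counted among the unnamed cells, held 168 Mmp7 UMIs in 142 cells. Its Mmp7 level was 95.9 ± 38.2 CPM over the 3 libraries with at least 20 of its cells. It also held 345 Ang4 UMIs (215 ± 27.3 CPM) beside 1605 alpha-defensin UMIs. No quotient was formed for it.

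**Figure D2:**
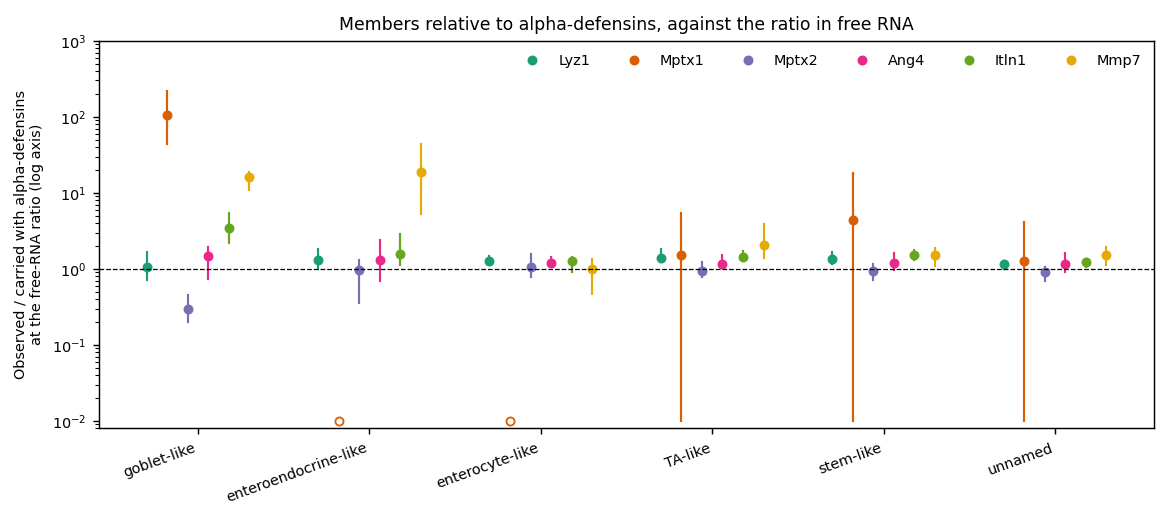
Observed UMIs of each gene divided by the UMIs that alpha-defensins would bring along at the free-RNA ratio, by cell class (log axis), without Paneth-like cells and cluster 19, which hold alpha-defensins of their own. Points are means over 6 libraries, bars run from the lowest to the highest library, the dashed line is 1, and open points or bars ending at the axis floor are 0. In goblet-like cells Mptx1, Mmp7 and Itln1 stood at 104, 15.9 and 3.49 and Mptx2 at 0.30. The quotient takes every alpha-defensin UMI of a class as free RNA.

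Most Mptx1 UMIs thus lay in goblet-like cells and most Mptx2 UMIs in Paneth-like cells. Goblet-like cells, the mucus makers of the epithelium, held 32, 167 and 21 Mptx1 UMIs in Fpr2f/f replicates 1 to 3 against 77, 69 and 77 in those of Fpr2VKO, or 16, 36.9 and 8.94 CPM against 23.3, 21.0 and 45. The groups overlapped. The UMIs were unevenly spread over the cells: 443 UMIs fell in 80 of 1728 cells, and 350 of them in 22 cells with at least 5 each, the highest cell holding 73. Each library had such cells, with 2, 5 and 2 in Fpr2f/f and 6, 4 and 3 in Fpr2VKO. Summed over these 22 cells, Zg16, a lectin of goblet granules, stood at 45669 CPM against 28671 in the other goblet-like cells. The other markers of the goblet list differed less. Clca1 stood at 4765 against 3107, Agr2 at 22038 against 16864 and Muc2 at 10430 against 8105. Fcgbp stood at 16431 against 13566 and Tff3 at 34624 against 30052. Ang4 stood at 673 against 215, Mptx2 at 8.45 against 26.0, Lyz1 at 287 against 580, Itln1 at 578 against 633 and Mmp7 at 393 against 363, so the other members did not share 1 direction. These values are given with no test, as the cells were picked by a UMI count. That choice also took deeper cells on average, and the part of depth and free RNA in these values was not tested. Mptx1 had 0 UMIs in enterocyte-like, tuft-like, enteroendocrine-like and immune cells, which allows up to 0.171, 1.92, 0.508 and 1.27 CPM. In Paneth-like cells 34 of its 43 UMIs lay in 3 of 909 cells, with 18, 10 and 6 UMIs, and these 3 cells came from the 3 Fpr2f/f libraries, 1 from each.

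Mmp7 in goblet-like cells stood at 329, 359 and 338 CPM in Fpr2f/f and at 331, 482 and 294 in Fpr2VKO. To compare shares of cells with a UMI, each cell was thinned to 1000 UMIs. Mmp7 was then found in 72.7% ± 7.20 of Paneth-like, 15.4% ± 3.84 of goblet-like and 6.03% ± 3.07 of enteroendocrine-like cells (means over 6 libraries), while in the other named classes, unnamed and immune cells the means ran from 0.150% in enterocyte-like to 2.49% in tuft-like cells. Median depths before thinning were 22415 UMIs in Paneth-like, 4233 in goblet-like, 12508 in enteroendocrine-like, 22535 in enterocyte-like and 2562 in tuft-like cells. Without thinning the Mmp7 shares were 94.9% of Paneth-like, 39.3% of goblet-like, 34.5% of enteroendocrine-like and 7.67% of enterocyte-like cells. Lyz1 reached 99.8% of thinned Paneth-like cells, and its share of goblet-like cells, 32.5%, lay among those of classes outside the Paneth and goblet lineages, which ran from 11.6% in stem-like to 37.3% in tuft-like cells. Itln1 reached 98.8% of thinned Paneth-like and 28.0% of goblet-like cells, against 5.65% of stem-like to 16.8% of tuft-like cells. Mptx2 was found in 86.2% ± 8.03 of thinned Paneth-like cells and in 4.91% of goblet-like cells, against 1.24% of stem-like to 5.11% of unnamed cells. Mptx1 was found in 1.12% ± 0.360 of thinned goblet-like cells and in 1.33% ± 1.53 of thinned cells of cluster 19. It was in 0 of 909 thinned Paneth-like cells. Before thinning 11 of 909 of those (1.21%) had a UMI, beside 80 of 1728 goblet-like cells (4.63%) and 14 of 237 of cluster 19 (5.91%). In thinned cells of cluster 19 the shares were 55.2% ± 21.1 for Mmp7, 56.2% for Lyz1, 51.0% for Itln1, 26.9% for Ang4 and 10.3% for Mptx2. The median depth of that cluster before thinning was 19400 UMIs. Values after ± are SDs over 6 libraries, while the limits given for counts of 0 cover counting error only.

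Cluster 19 had 237 cells, 36, 30 and 54 from Fpr2f/f against 34, 54 and 29 from Fpr2VKO. Its leading genes included Atoh1, the master regulator of the secretory lineages, the Notch ligand Dll1, the receptor Kit, and Spink4, Rnase1, Rnase4 and Ccl9. Markers of both secretory lineages were present, with the Paneth list at 21105 to 131026 and the goblet list at 19020 to 26766 CPM. The goblet list fitted it best (4 of 6 markers higher, mean log2 fold 0.56), but none of its markers was among the 10 leading genes, and by that rule, set after the clusters were seen, it was given no name. Mmp7 was about as high there as in Paneth-like cells, at 2739, 1707 and 5647 CPM in Fpr2f/f and 2267, 1376 and 1409 in Fpr2VKO. Its level in Paneth-like cells was 0.960 times that in cluster 19 as a geometric mean, with single libraries from 0.341 to 1.68. The same fold was 3.74 for Itln1, 6.54 for Lyz1, 35.8 for Ang4 and 64.7 for Mptx2, beside 12.1 for the alpha-defensins. For Mptx1 it was 0.247 over the 4 libraries with UMIs in both. Fpr2f/f replicate 3 was highest in cluster 19 for all 5 genes other than Mptx1, with Lyz1 at 23234 against 4286 to 12095 in the other libraries.

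Mmp7 had its highest mean level at a lower alpha-defensin content than Lyz1, Itln1, Ang4 and Mptx2. Cells of cluster 19 and Paneth-like cells of at least 5000 UMIs were ordered by the share of their UMIs that came from alpha-defensins, and levels were averaged over libraries with at least 3 cells in a bin. Mmp7 stood at 504 ± 402 CPM below 1% alpha-defensin (108 cells), at 4008 ± 3600 from 1% to 5% (23 cells) and at 5602 ± 842 from 5% to 15% (52 cells). It was lower again in the defensin-rich cells, at 4256 ± 1145 from 15% to 30% (56 cells), 2741 ± 340 from 30% to 45% (214 cells) and 1957 ± 213 above 45% (386 cells). Mmp7, the protease that processes defensins, thus had its highest mean level in cells with 5% to 15% alpha-defensin, over 5 libraries. From the lowest bin to the highest, cells of cluster 19 made up 107 of 108, 21 of 23, 42 of 52, 22 of 56, 2 of 214 and 0 of 386 cells, so the order is largely one of cluster 19 against Paneth-like cells. Lyz1 and Itln1 also stood well above their lowest bin at that content, at 21391 ± 6549 and 13576 ± 3464, and had their highest means from 30% to 45%, at 57590 ± 10593 and 24934 ± 1978. Ang4 and Mptx2 stood low at that content, at 1026 ± 863 and 625 ± 488, and reached 16490 ± 4647 and 9790 ± 2404 from 30% to 45% and 20099 ± 3132 and 10436 ± 2401 above 45%. Above 45% Lyz1 stood at 50025 ± 9747 and Itln1 at 19511 ± 1763. Mptx1, with few UMIs, had its highest mean from 1% to 5%, at 32.3 ± 38.9, where 26.1% of the 23 cells held a UMI. The last 2 bins differed by less than 1 SD between libraries for Mptx2 and Lyz1 and overlapped within 1 SD for Ang4. For Itln1 and Mmp7 they did not overlap within 1 SD. The same libraries supply both bins, so this spread does not test the difference between them for any gene. All values are shares of 1 total per cell, so a larger defensin share leaves less for the other genes. The order is one of content, not of time, and was given no test.

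**Figure D3:**
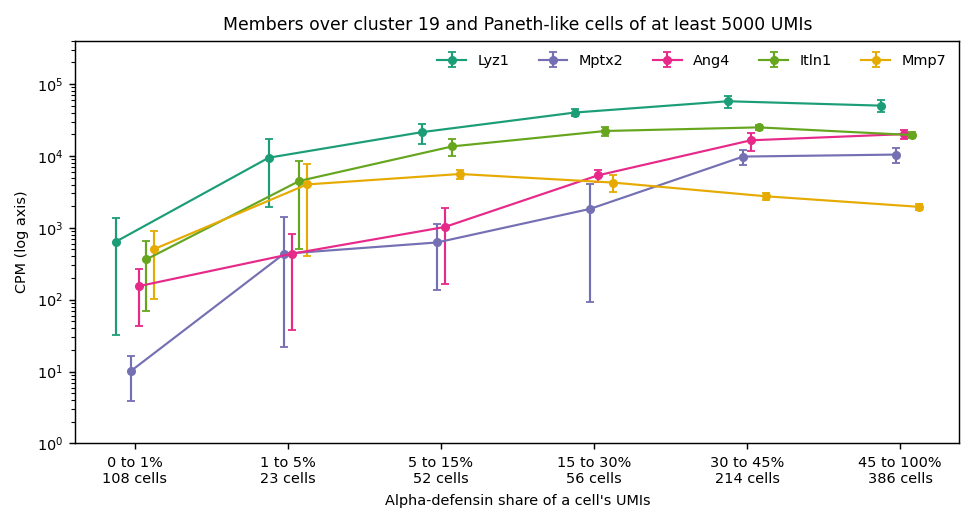
Mean CPM (log axis) of 5 genes in cells of cluster 19 and Paneth-like cells of at least 5000 UMIs, by the alpha-defensin share of the cell, with bars of 1 SD over libraries (lower ends shortened where they would pass 0). Mmp7 had its highest mean, 5602, at 5% to 15%, while Ang4 and Mptx2 went from 1026 and 625 there to 20099 and 10436 above 45%.

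Among the 5 genes other than Mptx1, Mptx2 also varied most between single Paneth-like cells. Over the 543 Paneth-like cells with at least 10000 UMIs, the 90th percentile of its level was 19.8 times the 10th, with single libraries from 6.01 to 32.3. Its coefficient of variation was 85.4%, where counting error alone gives 5.23%. The same ratio was 4.17 for Ang4, 3.34 for Lyz1, 3.0 for Mmp7 and 2.36 for Itln1. It could not be formed for Mptx1, which had no UMI in 532 of these cells. Only 4 of the 543 cells had no Mptx2 UMI, and the 10th percentile lay at 1090 CPM against a median of 7786. Within libraries, Itln1 and Mmp7 went together across these cells (median Pearson r = 0.41, 0.21 to 0.77 over 6 libraries), as did Lyz1 and Itln1 (r = 0.37, 0.12 to 0.51). The remaining pairs of members were weakly related, with median r from -0.08 for Ang4 and Mmp7 to 0.23 for Mptx2 and Ang4. Against the alpha-defensins of the same cells, median r was 0.36 for Ang4 and 0.29 for Mptx2 (Spearman -0.08 for Mptx2). It was -0.16 for Lyz1, -0.25 for Mmp7 and -0.31 for Itln1. Cells of a library share its preparation and each value shares the cell's UMI total, so these correlations are descriptions.

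**Figure D4:**
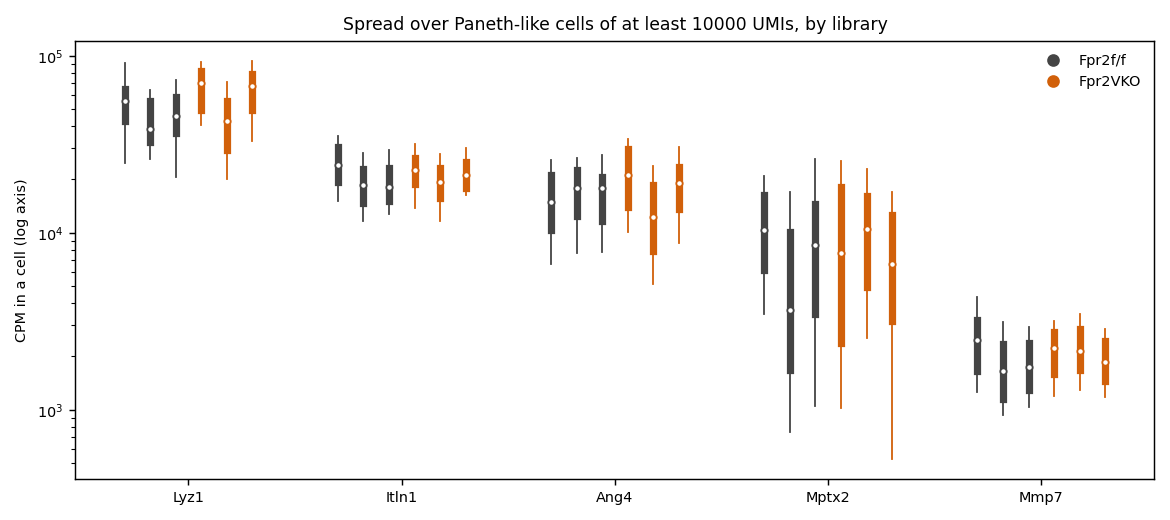
Levels in single Paneth-like cells of at least 10000 UMIs (log axis), 1 bar per library, with the median as a white point, the thick bar from the 25th to the 75th and the thin line from the 10th to the 90th percentile. Among the genes other than Mptx1, the spread was widest for Mptx2, whose 90th percentile was 6.01 to 32.3 times its 10th within a library.

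Depth moved with some of these levels. Paneth-like cells under 10000 UMIs (366 cells) had 4920 ± 3469 CPM of Mptx2 and 9803 ± 1334 of Ang4, against 10226 ± 1767 and 18967 ± 3250 in the 543 deeper cells. Lyz1 differed less, at 46930 ± 5429 and 52853 ± 10841. The alpha-defensins stood at 300753 and 478653 in the same cells. The part of cell state and of free RNA in these differences was not tested.

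Across 48 sums of 8 named classes and 6 libraries, the genes most like each member in log2 level (CPM plus 1) were sought among 11172 genes. The rankings leave out the 6 members themselves, of which Lyz1, Ang4 and Itln1 correlated with one another at r = 0.98 to 0.99. Lyz1, Ang4 and Itln1 had the alpha-defensins Defa24 (r = 0.988, 0.990 and 0.989) and Defa17 nearest, followed by Defa22 for Lyz1 and Ang4 and by Clps, which encodes colipase, for Itln1. Mptx2 was nearest to AY761184 (r = 0.982), Gm14851 (r = 0.981) and Defa30 (r = 0.98). The nearest genes of Mmp7 were other genes, Nupr1 (r = 0.901), Thbs1 (r = 0.896) and Ccl6 (r = 0.896). The nearest of Mptx1 were the muscarinic receptor gene Chrm1 (r = 0.930), Sval1 (r = 0.912) and Tpsg1 (r = 0.910). Between the paralogs Mptx1 and Mptx2 r was 0.15, while that of Lyz1 and Ang4 was 0.99. The sums share libraries and classes, so these values carry no p. Defa24, Defa17, Defa22, Defa30, Clps and Gm14851 were also among the markers that named the Paneth-like class. Their contrast between classes was therefore in part built in. Levels outside Paneth-like cells included free RNA, whose part in these correlations was not tested.

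The groups were then compared, beginning with the number of Paneth-like cells. Fpr2f/f gave 72, 251 and 129 of them against 104, 194 and 159 from Fpr2VKO. As a share of epithelial cells this was 2.82%, 5.60% and 4.74% against 4.86%, 7.33% and 8.77%, or 4.39% ± 1.42 against 6.98% ± 1.97 (SD, n = 3). The difference of 2.60 points was within what the replicates allow (two-sided exact permutation test, p = 0.20, where 3 against 3 libraries cannot go below 0.1). Its size and sign moved with the mitochondrial limit, where the cells were clustered and named anew each time. At a limit of 40% the difference was -2.09 points (exact p = 0.20), and most cells of the class then came from a cluster of 2180 cells with a median of 1799 UMIs and 30.5% mitochondrial UMIs. The limit and the changed make-up of the class were not tested apart. At 10% the shares were 7.17%, 9.87% and 10.3% against 18.4%, 24.5% and 30.7%, so the groups did not overlap and the difference was 15.4 points (exact p = 0.1, the smallest this design allows). Paneth-like cells came from 2 clusters in unequal parts, cluster 13 with 24, 142 and 56 cells from Fpr2f/f against 39, 171 and 150 from Fpr2VKO, and cluster 16 with 48, 109 and 73 against 65, 23 and 9. They were also deeper in Fpr2VKO, with median UMIs of 10080, 7065 and 13827 against 47108, 37257 and 25680, and the part of this gap in the results below was not tested.

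In Paneth-like cells, 5 of the 6 effectors gave no call between Fpr2VKO and Fpr2f/f. Their log2 fold changes were 0.29 for Lyz1 (95% interval -0.23 to 0.81), 0.23 for Mptx2 (-0.20 to 0.67), 0.08 for Itln1 (-0.38 to 0.54), 0.07 for Ang4 (-0.39 to 0.54) and 0.06 for Mmp7 (-0.28 to 0.41). The adjusted p values in edgeR's quasi-likelihood test over all genes were 0.794 to 0.956. With cells taken instead by an alpha-defensin share of at least 2%, Lyz1 (0.04 to 0.94) and Mptx2 (0.09 to 0.89) both gave 0.49, with intervals above 0 and no call (adjusted p = 0.535 and 0.444, edgeR). The deeper cells alone, those of at least 10000 UMIs, gave 0.23 for Lyz1, 0.15 for Mptx2 and values between -0.02 and 0.00 for Itln1, Ang4 and Mmp7. Mptx1 was the only member called, lower in Fpr2VKO by a log2 fold change of -2.93 (SE 0.58, adjusted p = 0.00374, edgeR). Among all 9031 genes tested, 36 were called, 0.399%, 7 higher and 29 lower in Fpr2VKO. Mptx1 passed the filter on low counts only through the Fpr2f/f libraries. Its libraries did not overlap between groups, and neither did those of 8.69% of the genes tested.

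The Mptx1 call in Paneth-like cells rested on very few molecules. In the 3 Fpr2f/f libraries single cells held 6 of 6, 18 of 19 and 10 of 12 UMIs. Without those 3 cells 0, 1 and 2 UMIs remained in Fpr2f/f against 0, 2 and 4 in Fpr2VKO, and the gene no longer passed the filter on low counts. In cluster 16 lay all 37 Mptx1 UMIs of Fpr2f/f, and Fpr2VKO had 97 of the 327 cells of that cluster. The call was also lost without Fpr2f/f replicate 2 (log2 fold change -2.97, adjusted p = 0.138, edgeR) and with cells taken by an alpha-defensin share of at least 2% (-0.96, adjusted p = 0.794). DESeq2 gave -3.05 with no adjusted p. In goblet-like cells, where most Mptx1 UMIs lay, the log2 fold change was 0.27 (-1.46 to 2.00, adjusted p = 0.956, edgeR).

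The 2 clusters behind the class gave different results. Cluster 13 was led by Defa30, AY761184 and Gm14851, and cluster 16 by Defa34, Defa22 and Defa5. Defa34 and Defa5 were themselves called lower in Fpr2VKO in the class. The clusters may thus sort cells by genes that differ between the groups, and comparisons within them carry that limit. In cluster 13, Mptx2 stood at 2666, 2920 and 7673 CPM in Fpr2f/f and at 8428, 12013 and 8924 in Fpr2VKO. Ang4 stood at 3559, 9079 and 10907 against 13526, 13171 and 20579, and Mmp7 at 586, 996 and 1512 against 1826, 2337 and 1926. Itln1 stood at 5976, 15114 and 17616 against 18628, 19499 and 21220. These 4 genes were higher in Fpr2VKO with no overlap, as were 2.84% of the 3340 genes tested (60.4% in either direction), while Lyz1 overlapped. Mptx2 (log2 fold change 2.24, SE 0.59, adjusted p = 0.0105), Mmp7 (2.01, SE 0.44, adjusted p = 0.00447) and Ang4 (1.99, SE 0.64, adjusted p = 0.0280, all edgeR) were called, where 30.9% of the genes tested were called and 15.7% were called higher. Itln1 (1.61, adjusted p = 0.0670) and Lyz1 (1.57, adjusted p = 0.108) were not. In CPM, 1923 of the 2018 genes of cluster 13 without overlap were lower in Fpr2VKO, and the edgeR folds are set against a median gene at -0.02. The cells of this cluster also differed in depth, with median UMIs of 2286, 3394 and 3644 in Fpr2f/f and 6272, 37352 and 25166 in Fpr2VKO, and in alpha-defensin share, with 12.2%, 35.0% and 32.3% against 40%, 45.9% and 47.7%. The part of either in these calls was not tested.

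In cluster 16, all 5 members tested overlapped between groups, where 19.8% of the 7105 genes tested did not. Their log2 fold changes were -0.41 for Mmp7 (95% interval -1.02 to 0.19), -0.34 for Mptx2, -0.32 for Ang4, -0.23 for Itln1 and -0.17 for Lyz1. None was called (adjusted p 0.963 to 0.999, unadjusted p from 0.171 upwards, edgeR), where 2 genes were (0.0281%). Mptx2 stood at 10895, 7416 and 10393 CPM against 11602, 12736 and 4288, the last from 9 cells. Ang4 stood at 17110, 19834 and 18123 against 24775, 22494 and 12199, the last from the same 9 cells. For both genes the overlap rested on that library alone, and without it both were higher in Fpr2VKO in CPM with no overlap. The share of all genes that did so is not given here. These signs depend on the scaling, since 1369 of the 1406 genes of cluster 16 without overlap were higher in Fpr2VKO in CPM. Over the libraries with at least 20 cells, which leaves out the one of 9, mean CPM in Fpr2VKO was above that in Fpr2f/f for each of the 5, with Lyz1 at 47489 against 61615, Ang4 at 18355 against 23635, Mptx2 at 9568 against 12169, Itln1 at 20510 against 22419 and Mmp7 at 2165 against 2225 (Fpr2f/f first). The difference between the clusters was not tested.

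**Figure D5:**
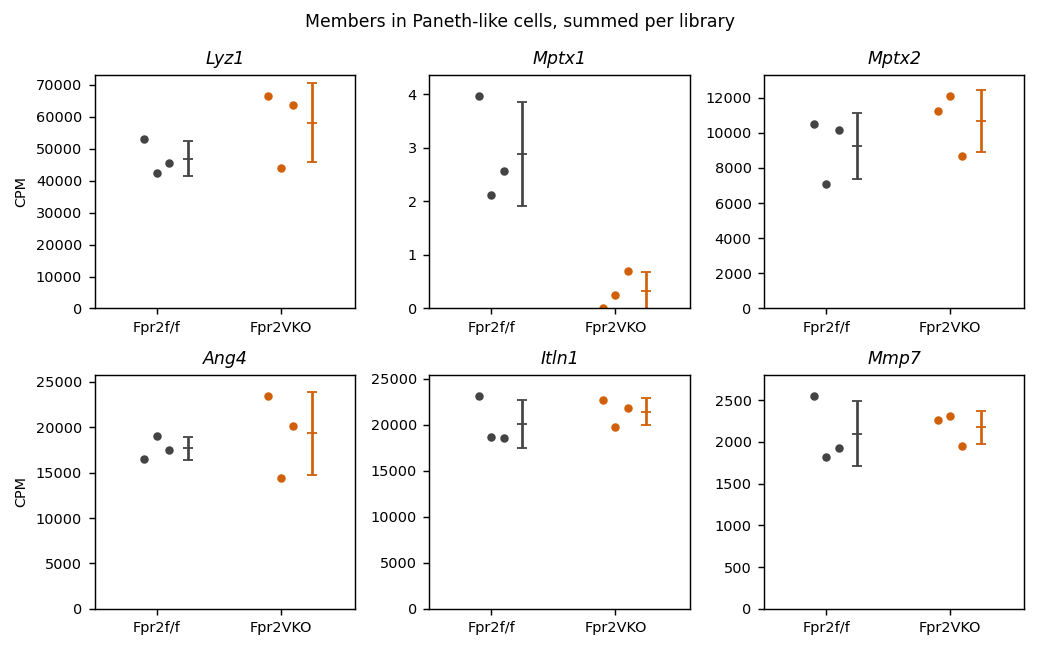
CPM (linear axes from 0) of each gene in Paneth-like cells, 1 point per library, with the mean and 1 SD of each group beside the points (n = 3). The ranges overlapped for all genes but Mptx1, whose points stand for 6, 19 and 12 UMIs in Fpr2f/f and 0, 2 and 4 in Fpr2VKO.

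Other Paneth genes were set beside the members as background. Of the 22 alpha-defensins, 21 were tested in Paneth-like cells, 0 were called higher and 3 lower in Fpr2VKO, with a median log2 fold change of -0.45 where the median of all genes was -0.00. The 3 most abundant were not called, with Defa24 at -0.04 (SE 0.31), Defa30 at 0.05 (SE 0.29) and Defa21 at -0.34 (SE 0.28). Those called were Defa34 (-1.19, adjusted p = 3.10e-05), Defa5 (-0.88, adjusted p = 0.00933) and Defa27 (-0.63, adjusted p = 0.0139, all edgeR), named after their values were seen. With cells taken by an alpha-defensin share of at least 2% or of at least 10%, Defa34 alone of these 3 was called. Alpha-defensin genes are close copies of one another, so reads may be split between them. Of 9 other antimicrobial genes tested none was called (0 at an unadjusted p under 0.05, edgeR) and the median was -0.49, with Spink4 at -0.38, Reg3g at -0.16 and the lectin gene Reg4 at 0.33. Of 16 tested genes of Paneth fate and secretion none was called (1 at an unadjusted p under 0.05) and the median was 0.05, with Sec61b, a subunit of the protein channel of the endoplasmic reticulum, at 0.12, Xbp1, a regulator of secretory capacity, at 0.06 and Sox9, which Paneth cells need to form, at 0.35. Of the 8 relatives of the members, 2 passed the filter and none was called, Lyz2 at 0.09 and Ang5 at 0.08, and the third by UMIs, Crp, had 16 UMIs.

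In goblet-like cells no member was called among the 11 of 10196 genes that were (0.108%). The log2 fold changes ran from -0.05 for Itln1 to 0.37 for Mptx2, with adjusted p of 0.865 to 0.976 and unadjusted p from 0.282 upwards (edgeR), and DESeq2 called 0 of the 4 members to which it gave an adjusted p, which were those other than Mptx1 and Mptx2. No member had groups without overlap, against 12.7% of the genes tested. Of the other antimicrobial genes Reg4 was called higher in Fpr2VKO (0.96, SE 0.17, adjusted p = 0.0165, edgeR), the only one of 8 tested. In enteroendocrine-like cells, tested after their levels were seen, Mmp7 had a log2 fold change of -1.02 (95% interval -1.62 to -0.41) and groups that did not overlap, as had 9.09% of the genes tested. It was not called (unadjusted p = 0.00319, adjusted p = 1.00, edgeR, where 3 of 9235 genes were called, 0.0325%), while with no filter on low counts the adjusted p was 0.00299. Goblet markers moved in the same direction in these cells. The goblet list of 6 summed to 2590, 2699 and 6640 CPM in Fpr2f/f and to 803, 627 and 260 in Fpr2VKO. Its member Zg16 was called lower (log2 fold change -4.70, SE 0.43, adjusted p = 0.0308, edgeR), and the part of goblet transcripts in the Mmp7 difference was not tested. In cluster 19 all 5 members tested had negative log2 fold changes, from -3.65 for Mptx2 (95% interval -7.76 to 0.47) to -1.22 for Ang4, and none was called (adjusted p 0.615 to 0.787, unadjusted p from 0.0703 upwards, edgeR, with 0 in DESeq2), where 1 of 7652 genes was (0.0131%). No member had groups without overlap there, against 15.1% of the genes tested. The alpha-defensin median in that cluster was -1.61 as well, and without Fpr2f/f replicate 3, the highest library for all 5 members, the value of Ang4 was 0.29.

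Over all epithelial cells summed per library, the log2 fold changes were 0.67 for Lyz1 (95% interval -0.18 to 1.52), 0.66 for Mptx2, 0.45 for Itln1, 0.43 for Ang4, 0.27 for Mmp7 and 0.01 for Mptx1. None was called (adjusted p 0.632 to 0.997, unadjusted p from 0.105 upwards, edgeR, with 0 in DESeq2), where 3 of 16510 genes were (0.0182%). In these sums more Paneth-like cells and more RNA per cell cannot be told apart. Lyz1 stood at 3454, 8106 and 7535 CPM in Fpr2f/f and at 8755, 8690 and 12401 in Fpr2VKO, and was the only member whose groups did not overlap, against 13.6% of the genes tested. In free RNA the 6 effectors took 0.109%, 0.616% and 0.369% of UMIs in Fpr2f/f and 0.240%, 0.529% and 0.422% in Fpr2VKO. These groups overlapped, and the difference of 0.0326 points gave p = 0.900 (two-sided exact permutation test).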

How the data were processed

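The authors aligned reads to mm10 with MobiVision and deposited raw UMI counts per gene and barcode. They analysed them with Seurat 4.0.0. From these counts, barcodes with at least 1000 UMIs, 500 genes and at most 20% mitochondrial UMIs were kept. The mitochondrial limit decides which cells are seen. Doublets were scored against artificial ones. Leiden clusters (scanpy 1.11.5, 2000 variable genes, 30 components, resolution 1.0) were drawn without the 6 genes and named from fixed markers. The authors' cell-wise test takes cells as replicates and was not used: UMIs were summed per class and library and tested over all genes in edgeR 4.0.16 (quasi-likelihood, Benjamini-Hochberg, threshold 0.05), with DESeq2 1.42.0 as an alternative. On simulated libraries with the depths of the Paneth-like sums, the test called 168 of 200 genes changed 4-fold and 3 of the unchanged genes among 9200. This says nothing of smaller changes, such as those of the uncalled members. The study gives 3 mice a group, but no source used here ties a library to a mouse, so p-values measure the spread between these libraries. Genes were named by list: the 6 members, the 3 most abundant of each comparison list and the 3 most alike. The members and lists were chosen with earlier results of these data known. The rule that a named cluster needs a marker among its 10 leading genes was set after the clusters were seen. Sequences came from RefSeq, where all 6 members matched, and gene positions from the annotation of GRCm38. Protein sequences were not used here.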

Additional observations from a re-analysis of the deposited data

How the results depend on the processing

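Direction and side of the threshold were the same in 166 of 233 recomputed comparison values and 404 of 442 values of single genes. The share of Paneth-like cells was 2.60 points higher in Fpr2VKO but differed by -2.09 points at a mitochondrial limit of 40% and by 15.4 points at 10%. The effector share of free RNA, 0.0326 points higher, ran from -0.0952 to 0.158 when libraries were left out in turn, and turned negative once Fpr2f/f replicate 1 (-0.0952) or Fpr2VKO replicate 2 (-0.0336) was omitted. In Paneth-like cells the 1 call among the members, Mptx1, became 0 under mitochondrial limits of 40% and 10%, a minimum of 2000 UMIs, no doublet removal and without the 3 cells with most Mptx1, where Mptx1 did not pass the filter on low counts and was not tested. It was tested and not called at an alpha-defensin share of at least 2%, ranged from 0 to 1 with libraries left out, and was 0 in DESeq2, whose adjusted p for Mptx1 was NA. With only cells of cluster 13 there were 3 calls among the members, Mptx2, Mmp7 and Ang4, and 1032 among all genes, and with only cells of cluster 16 there were 0 and 2. The 36 genes called there became 11 in DESeq2, 71 with no filter on low counts, 8 and 22 at mitochondrial limits of 40% and 10%, 64 with no doublet removal, 10 at an alpha-defensin share of at least 2%, and 17 to 72 with libraries left out. They became 11 in cells of at least 10000 UMIs and 9 at an alpha-defensin share of at least 10%, alternatives that were chosen after seeing the data, as were the removal of the 3 cells and the tests in clusters 13, 16 and 19. In goblet-like cells 11 genes became 25 in DESeq2, 60 with no filter, 17 at a limit of 40%, 20 with no doublet removal and 12 to 54 with libraries left out. Over all epithelial cells 3 genes became 104 in DESeq2, 183 with no filter, 131 at a limit of 10%, 7 with no doublet removal, 5 without cells whose barcode another library held and 1 to 105 with libraries left out. In cluster 19 the 1 gene became 6 in DESeq2, 98 with no filter and 1 to 80 with libraries left out. In enteroendocrine-like cells, a comparison added after seeing the data like the removal of shared barcodes, 3 genes became 10 in DESeq2, 22 with no filter and 1 to 7 with libraries left out, and the 0 members called became 1 with no filter, Mmp7. Counts of genes were thus unstable, and the cause was not tested.

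Deviations from the group means of same-numbered libraries were correlated at r = 0.017, 0.058 and 0.086 in Paneth-like cells, -0.018, 0.075 and 0.092 in goblet-like cells and -0.069, -0.044 and 0.290 over all epithelial cells. As not every pair passed 0.1 in any of them, the numbers were not taken as pairing the libraries, although in Paneth-like cells each library correlated best with its own number, a hint from the data and not the design. With the replicate number as a block, 160 genes were called in Paneth-like cells, 37 in goblet-like cells, 35 over all epithelial cells, 7 in enteroendocrine-like cells and 2 in cluster 19.

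Small uncalled log2 fold changes turned in sign. With libraries left out in turn, those in Paneth-like cells ran from -0.06 to 0.29 for Ang4 and from -0.09 to 0.17 for Mmp7. Those in goblet-like cells ran from -0.31 to 0.17 for Itln1, -0.11 to 0.65 for Ang4, -0.07 to 1.2 for Mptx1 and -0.18 to 0.22 for Mmp7. Mptx1 over all epithelial cells ran from -0.30 to 0.79 (-0.02 without shared barcodes), Itln1 in enteroendocrine-like cells from -0.14 to 1.07, and Ang4 in cluster 19 from -1.64 to 0.29, positive only when Fpr2f/f replicate 3 was omitted. The highest Mptx1 values in both populations came when Fpr2f/f replicate 2 was omitted. In Paneth-like cells a mitochondrial limit of 10% gave -0.02 for Ang4, -0.06 for Mmp7 and -0.01 for Itln1, the deeper cells gave -0.00 for Ang4 and -0.02 for Mmp7, and Mmp7 gave -0.00 at 2000 UMIs and -0.01 at an alpha-defensin share of 10%. With only cells of cluster 16 the values were -0.41 for Mmp7, -0.34 for Mptx2, -0.32 for Ang4, -0.23 for Itln1 and -0.17 for Lyz1, against positive values in the class, while mean CPM in that cluster was higher in Fpr2VKO for all 5 over the libraries with at least 20 cells. In goblet-like cells Itln1 gave 0.06 and 0.01 at limits of 40% and 10%, and Mmp7 gave -0.01 at 2000 UMIs.

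Without thinning, the share of goblet-like cells with a UMI was 75.3% for Lyz1, 4.99% for Mptx1, 17.4% for Mptx2, 42.5% for Ang4, 59.9% for Itln1 and 39.3% for Mmp7, and that of Paneth-like cells 1.24% for Mptx1, 97.1% for Mptx2 and 94.9% for Mmp7. Mptx1 had 39 to 195 UMIs per library in all cells left after doublet removal.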
